A study of Mus musculus with 4 samples.

Results

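The genes examined here were 36 genes of the amino acid stress response, out of 32285 genes in the count tables, selected by symbol: ATF4 and related regulators, amino acid synthesis and mitochondrial folate enzymes, amino acid transporters and aminoacyl-tRNA synthetases. Their RNA was followed across tumor-like, immune and stromal cells of 4 single-cell libraries, with 1 library per group. Tumors of MC38, a colon cancer line of the mouse, grew in C57BL/6 hosts of the same strain. Their cancer cells had either WT RAC1, a small GTPase, or an A159V knock-in made with CRISPR-Cas9, and the study presents a single edited clone unless it states otherwise. All mice received antibody, either an IgG isotype control or anti-PD1, which blocks a checkpoint receptor of T cells, and this gave 2 WT groups (WT IgG and WT anti-PD1) and 2 A159V groups (A159V IgG and A159V anti-PD1). Tumors were dissociated, and beads were used to part CD45+ from CD45− cells, which were then mixed again in a set proportion, so the ratio of CD45+ to CD45− cells in a library describes the mixing. The number of mice behind a library, their age and the time of collection are not given in the labels.

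After filtering, 6867, 6466, 7603 and 8248 cells were analyzed from WT (first IgG, then anti-PD1) and from A159V (first IgG, then anti-PD1), and wherever 4 values are listed without names they follow this order. Any 2 libraries shared 13 to 22 cell barcodes. The tumor-like class held 2019, 23, 2810 and 2104 cells, with median depths of 29589, 45455, 30770.5 and 42287.5 unique molecular identifiers (UMIs). With only 23 cells, WT anti-PD1 was left out of every tumor comparison, so no anti-PD1 comparison exists in WT tumor cells. The class was named from Rhox5, Prl2c2 and Prl2c3. Rhox5 was detected in 98.0%, 99.0% and 97.9% of tumor-like cells in WT IgG, A159V IgG and A159V anti-PD1, whereas the epithelial markers Epcam and Krt8 were detected in at most 0.178% and 1.19%. A level is the UMI count of a gene over all cells of a class, set to a common total (CPM, counts per 1000000), and intervals are exact Poisson 95% intervals that cover counting error only. With 1 library per group no test between groups was possible. A member was called higher or lower past 1.5-fold, on the log2(CPM + 1) scale, among genes with a mean of at least 20 CPM in the pair of profiles. In tumor-like cells a count of reads cannot separate fewer transcripts per cell from a shift among cell states, so levels within states are given as well.

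When an amino acid runs short or misfolded protein accumulates, kinases phosphorylate the translation factor eIF2, general translation slows and the mRNA of the transcription factor ATF4 is translated more. ATF4 pairs with partners such as CEBPB and binds a composite element in promoters of genes that import amino acids, synthesize asparagine, serine, glycine and proline, and charge tRNAs. Because ATF4 is controlled largely at translation, its mRNA level alone does not give its activity. Tumor cells often rely on this program for growth, and in immune cells the cystine transporter encoded by Slc7a11 supplies cysteine for glutathione.

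All 36 members matched the GENCODE M21 annotation by identifier and were protein coding. Sesn2, Ddit3 and Aars overlapped another listed gene on the same strand and 9 members a gene on the other strand, and their counts are less certain for that. Promoters from RefSeq (GRCm38.p6), which run from 250 bases before to 50 after a transcript start, were found for 30 of them, and Slc7a5, Slc7a3, Slc1a5, Cars, Nars and Wars had none. The consensus of the composite element, TGATGNAA, was searched on both strands. It was present in a promoter of 12 of the 30 members (40%) and of 1207 of 26995 other genes (4.47%), and in 3.97% of all promoters of this length. The members were chosen as genes of this pathway, so this share is a description of the choice. The matches in the promoters of asparagine synthetase, of Chac1 and of the 4 motif-bearing genes past 1.5-fold in A159V tumor-like cells are shown on the strand of the gene, with the match in capitals and its distance from the transcript start. TTNCATCA is the same element read on the opposite strand. The windows of the pair in Slc7a11 overlap.
Asns, chr6:7693214-7693243, minus strand, 23 bases upstream: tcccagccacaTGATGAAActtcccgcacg
Slc7a11, chr3:50443661-50443690, minus strand, 66 bases upstream: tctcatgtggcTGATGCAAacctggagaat
Slc7a11, chr3:50443642-50443671, minus strand, 47 bases upstream: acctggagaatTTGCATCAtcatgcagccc
Trib3, chr2:152344028-152344057, minus strand, 14 bases downstream: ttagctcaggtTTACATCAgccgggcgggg
Chac1, chr2:119351038-119351067, plus strand, 193 bases upstream: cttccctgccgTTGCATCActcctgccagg
Iars, chr13:49682126-49682155, plus strand, 7 bases downstream: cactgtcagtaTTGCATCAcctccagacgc
Tars, chr15:11399655-11399684, minus strand, 15 bases upstream: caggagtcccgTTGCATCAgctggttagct

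Other promoters with a match included those of Pycr1, Slc1a4, Nupr1, Gars and Yars. A match is a run of letters and not a measured binding site.

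Most members had their highest level in tumor-like cells. In the 3 libraries with tumor cells, and among tumor-like, macrophage-like, dendritic-like, neutrophil-like, T-like, NK-like and stromal-like cells, 22 of 36 members were highest in tumor-like cells in every library. Among members with a mean of at least 20 CPM over these profiles, 18 of 28 were, and among all 6937 genes at that minimum 21.8% were. Enzymes of asparagine and serine synthesis and Trib3 had among the widest gaps. Asns, which makes asparagine, was at 96.8, 137 and 138 CPM in tumor-like cells of WT IgG, A159V IgG and A159V anti-PD1, and the next ranked class in each library, stromal-like, was 4.91, 4.82 and 7.60 times lower. Phgdh, the first enzyme of serine synthesis, was at 239, 305 and 243 CPM, and its fold over the next class was 4.76, 6.24 and 5.27. Psph, the last enzyme of that pathway, was at 183, 343 and 288 CPM, which was 4.43, 8.17 and 7.12 times the next class. Trib3, a pseudokinase that ATF4 induces and that restrains it, was at 55.5, 97.4 and 104 CPM with folds of 8.23, 12.5 and 7.0. The tRNA synthetases, which every cell needs for translation, were all highest in tumor-like cells among the ranked classes but by less, from 1.12-fold to 3.94-fold over the next. In the unranked B or plasma-like cells of A159V anti-PD1, Yars was at 60.7, Cars at 56.6 and Slc6a9 at 20.2 CPM. These were above the tumor-like 38.9, 37.2 and 14.4 CPM, and the other members highest in tumor-like cells were lower there. Asns was at 64.7, Phgdh at 150 and Psat1 at 113 CPM there, nearer the tumor-like level than the next ranked class.

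**Figure D1:**
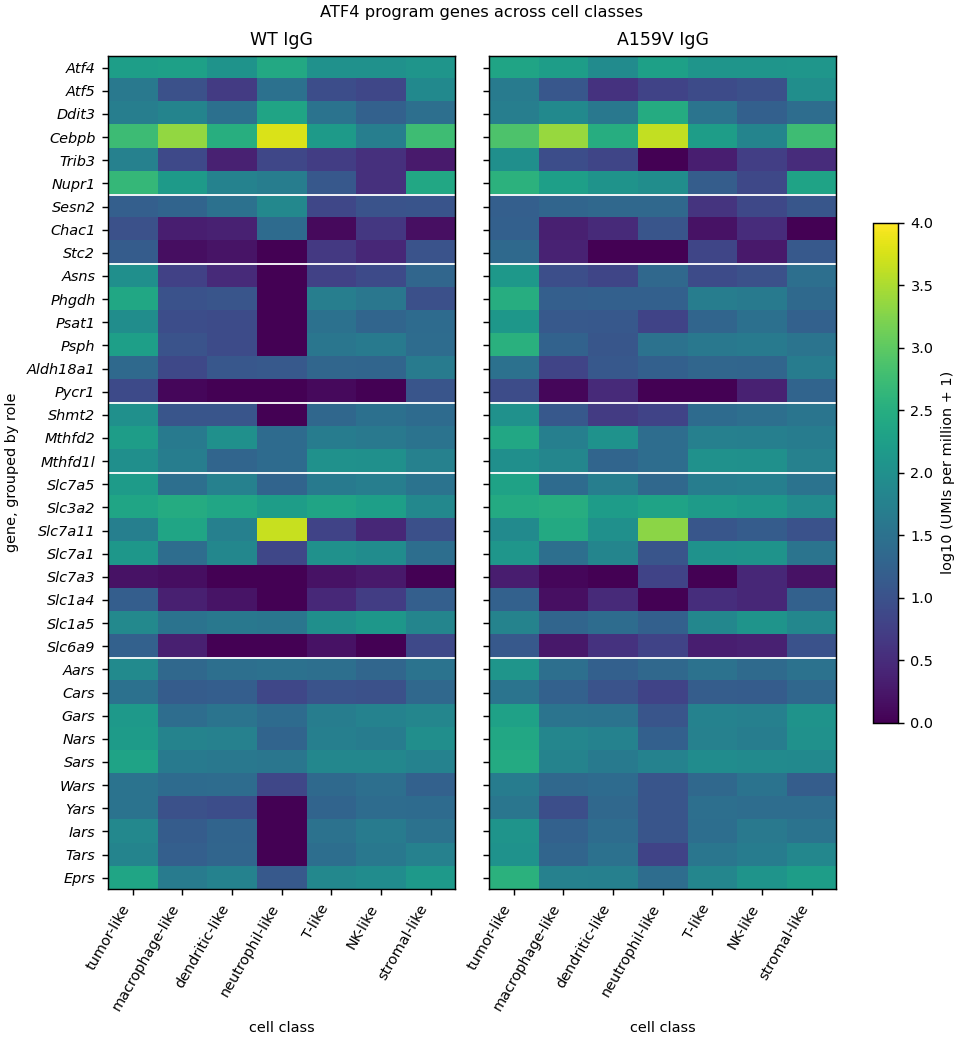
CPM (color, log10 of the value plus 1) for the 36 members in rows, by role, in 7 cell classes in columns, for WT IgG and A159V IgG. Synthesis enzymes such as Psph are brightest in the tumor-like column, whereas Slc7a11, Cebpb and Ddit3 are brightest in the neutrophil-like column.

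The low level of Asns in macrophage-like cells was near that of stray tumor RNA. In macrophage-like cells the Asns level was 5.15%, 5.84% and 5.02% of that in tumor-like cells of WT IgG, A159V IgG and A159V anti-PD1, while the tumor marker Rhox5 was at 3.05%, 4.38% and 2.98% of its tumor level in the same cells. In WT anti-PD1, the library with 23 tumor-like cells, macrophage-like Asns was 1.31 CPM, against 4.99, 7.98 and 6.93 CPM in the others. The Asns share was above the Rhox5 share in all 3 libraries, and how much of it is stray RNA was not tested. Psph was higher in T-like than in macrophage-like cells, at 36.8, 24.8, 38.9 and 40.5 CPM, against 9.68, 5.80, 17.1 and 14.2 CPM.

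Among the ranked classes the remaining members were highest elsewhere. Slc7a11, Ddit3, which encodes the stress factor CHOP, and Cebpb were highest in neutrophil-like cells in all 3 libraries. The proline synthesis enzymes Aldh18a1 and Pycr1 and the factor Atf5 were highest in stromal-like cells. Slc3a2, the heavy chain shared by the Slc7a5 and Slc7a11 transporters, was highest in macrophage-like cells, and the glutamine transporter Slc1a5 was highest in NK-like cells. In the unranked B or plasma-like cells of A159V anti-PD1, Slc3a2 (404 CPM), Aldh18a1 (72.8), Pycr1 (32.4) and Slc1a5 (121) were above those classes. These values rest on 57 cells. The interval of Pycr1 (14.0 to 63.8 CPM) included the stromal-like 18.7 CPM, and that of Slc1a5 (81.9 to 173 CPM) the NK-like 119 CPM. The class with the highest level differed between libraries for 6 members, which were Atf4 itself, Mthfd1l, Slc7a3, Slc1a4, Sesn2 and Chac1. Atf4 was at 172, 213 and 223 CPM in tumor-like cells and 262, 184 and 349.8 CPM in neutrophil-like cells. Atf4 mRNA was thus higher in neutrophil-like than in tumor-like cells of WT IgG and A159V anti-PD1. Asns in neutrophil-like cells had 0, 4 and 5 UMIs in the 3 libraries, or 0, 21.1 and 14.8 CPM. For the count of 0 in WT IgG the exact interval reaches 22.5 CPM.

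The comparison of A159V IgG with WT IgG asked how tumor-like cells with the edited RAC1 differed from those without. Of the 36 members 29 reached the minimum level, and 7 were past 1.5-fold higher in A159V IgG and 0 past 1.5-fold lower. Of all 6468 genes tested, 5.38% were past 1.5-fold higher and 9.71% past 1.5-fold lower. The median log2 ratio was 0.46 over the tested members and 0.013 over all genes, and 24 of 29 members lay above 0 against 51.6% of all genes. Past 2-fold, 0 members were higher, where 1.1% of all genes were, and 0 lower, where 3.15% were.

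Among the synthesis enzymes Psph differed most. Its level was 183 CPM in WT IgG (180.0 to 187) and 343 CPM in A159V IgG (339 to 347), with 288 CPM under anti-PD1, a log2 ratio of 0.90 (0.87 to 0.93) between the IgG libraries. Asns was at 96.8 and 137 CPM in WT IgG and A159V IgG, a log2 ratio of 0.49 (0.45 to 0.54). Psat1, which acts between Phgdh and Psph, was at 91.8 and 128 CPM (log2 ratio 0.47, 0.43 to 0.52), Phgdh at 239 and 305 CPM (log2 ratio 0.35, 0.32 to 0.38), and Aldh18a1 at 22.5 and 30.1 CPM (log2 ratio 0.41, 0.32 to 0.49). All 5 tested synthesis enzymes were thus higher in A159V IgG, 1 of them past 1.5-fold. The mitochondrial folate enzymes, which use the serine so made, were mixed. Mthfd2 was at 166 and 246 CPM (log2 ratio 0.57, 0.54 to 0.60), whereas Shmt2, at 100.2 and 104 CPM, and Mthfd1l, at 98.8 and 98.1 CPM, had log2 ratios of 0.049 (0.0037 to 0.095) and -0.011 (-0.057 to 0.036).

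All 10 aminoacyl-tRNA synthetases, which join each amino acid to its tRNA, were higher in A159V IgG, with log2 ratios from 0.16 to 0.80 and a median of 0.53. In WT IgG, A159V IgG and A159V anti-PD1, Tars (threonine) was at 62.8, 110.1 and 111 CPM, Iars (isoleucine) at 73.4, 119 and 127 CPM, Eprs (glutamate and proline) at 225, 361 and 354 CPM and Nars (asparagine) at 158, 248 and 244 CPM. These 4 were past 1.5-fold, with log2 ratios of 0.80, 0.69, 0.68 and 0.64. Aars (alanine) followed at 0.58, Wars (tryptophan) at 0.49, Gars (glycine) at 0.46, Sars (serine) at 0.46, Cars (cysteine) at 0.17 and Yars (tyrosine) at 0.16. Cars and Yars thus stood closest to 0. Summed over the group, the level was 1039 CPM in WT IgG, 1549 CPM in A159V IgG and 1556 CPM in A159V anti-PD1.

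The regulators and transporters lay on both sides of 0. Trib3 was at 55.5 and 97.4 CPM in WT IgG and A159V IgG, a log2 ratio of 0.80 (0.75 to 0.86), and at 104 CPM in A159V anti-PD1. Atf4 mRNA was at 172 and 213 CPM (log2 ratio 0.31, 0.28 to 0.35), and that of its partner Cebpb at 554 and 762 CPM (log2 ratio 0.46, 0.44 to 0.48). Atf5, a relative of ATF4, had a log2 ratio of 0.15 and Ddit3 of -0.0069. Of the 6 regulators only Trib3 was past 1.5-fold. Nupr1, a small stress-induced nuclear protein, was lower in A159V IgG, at 455 and 364 CPM (log2 ratio -0.32, -0.34 to -0.30). Among transporters Slc7a11 was past 1.5-fold higher, at 51.9 and 81.5 CPM (log2 ratio 0.64, 0.58 to 0.70), whereas Slc1a5 was lower, at 75.2 and 59.8 CPM (log2 ratio -0.33, -0.38 to -0.27). Slc7a5, the light chain for large neutral amino acids, had a log2 ratio of 0.34, Slc3a2 of 0.29 and the cationic amino acid transporter Slc7a1 of -0.073. The 7 members under the minimum were Pycr1 (6.88 and 7.47 CPM), Slc7a3 (0.593 and 1.09 CPM), Slc1a4 (14.5 and 16.2 CPM), the glycine transporter Slc6a9 (16.2 and 12.1 CPM), Sesn2 (15.2 and 15.5 CPM), the glutathione-degrading enzyme Chac1 (8.68 and 16.0 CPM) and the secreted glycoprotein Stc2 (13.4 and 22.5 CPM).

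**Figure D2:**
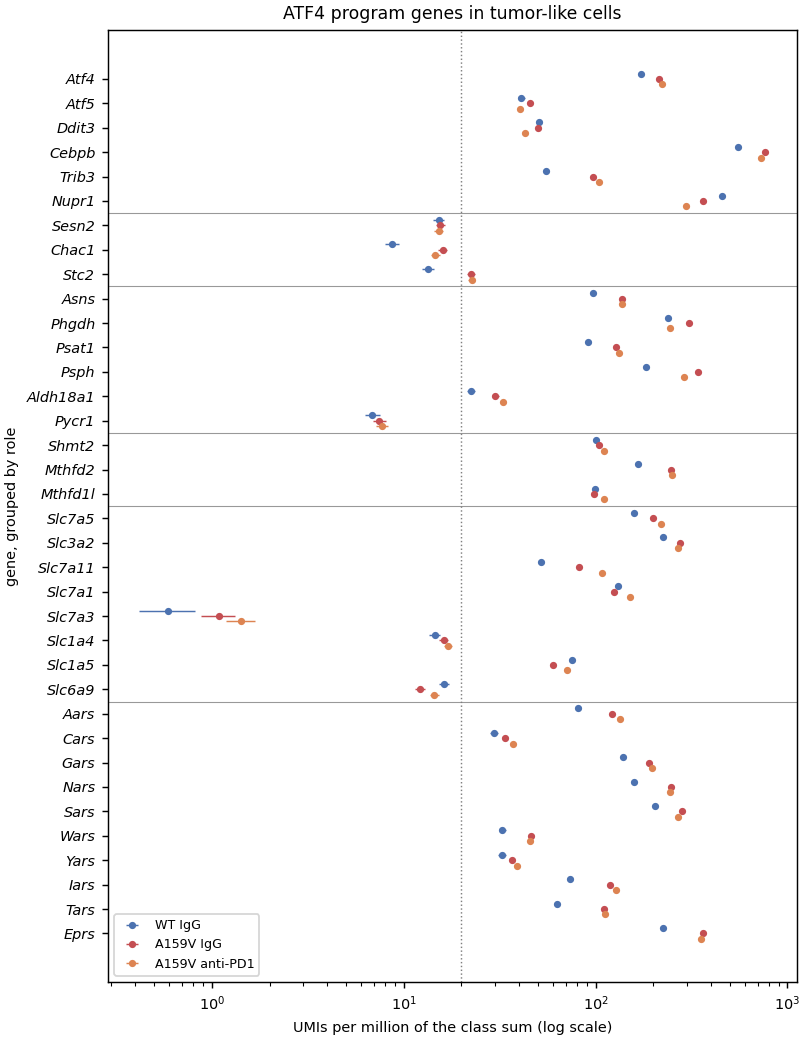
Levels of the 36 members in tumor-like cells (log axis, CPM), with a point for each of WT IgG, A159V IgG and A159V anti-PD1, exact Poisson 95% intervals and a dotted line at the minimum of 20 CPM. All 10 tRNA synthetases lie further right in A159V than in WT under IgG, and Psph lies at 183 and 343 CPM in these libraries.

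Members were also split by the promoter element shown above, with no test of the difference. The 9 tested members with it had a median log2 ratio of 0.58 (-0.32 to 0.80), and 4 were past 1.5-fold. The 15 with a promoter and no match had a median of 0.35 (-0.073 to 0.90), and 2 were past 1.5-fold. These ranges overlapped over most of their length, with Psph, which has no match, at the top of the second and Nupr1, which has a match, at the bottom of the first.

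Related gene lists had smaller medians than the members. Of 12 other genes known as ATF4 targets 9 were tested, and Gdf15 (102 and 200.1 CPM) and Eif4ebp1 (447 and 703 CPM) were past 1.5-fold higher in A159V IgG while Ddit4 (129.7 and 68.1 CPM) was past 1.5-fold lower, with a list median of 0.18. Of 10 tested genes for the eIF2 kinases and eIF2B, which act upstream of ATF4, only Eif2b4 was past 1.5-fold (0.63), with a list median of 0.18. The 10 cytosolic tRNA synthetases that are not members had a median of 0.19, and only Lars was past 1.5-fold (0.72). The 5 tested mitochondrial tRNA synthetases had a median of 0.052 with 0 past 1.5-fold. The 6 tested other folate and serine enzymes had a median of 0.37, with Gcsh past 1.5-fold (0.61). The 13 tested genes of the unfolded protein response, the endoplasmic reticulum branch of stress signaling, had a median of 0.11 with 0 past 1.5-fold. Of 7 tested targets of NRF2, which also drives Slc7a11, Hmox1 was higher (1.04) and Nqo1 lower (-1.23), and the median was 0.16.

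Several other measures differed between these 2 libraries. Of 8 tested genes of dissociation and heat shock, Fos, Fosb, Jun and Hspa1b were past 1.5-fold lower in A159V IgG (list median, -0.80). Median shares of mitochondrial UMIs were 4.29% in WT IgG and 2.90% in A159V IgG tumor-like cells. RNA of 9 immune or stromal genes summed to 476 CPM in WT IgG and 133 CPM in A159V IgG tumor-like cells. Without the cells that held such UMIs 7 of 29 members were again past 1.5-fold higher, where 4.79% of all genes were, with Mthfd2 in place of Slc7a11, whose log2 ratio was then 0.48. Cells with a UMI of the cycling genes Mki67 or Top2a made up 78.7% and 89.1% of tumor-like cells. Among the other 430 and 307 cells, 18 of 29 members were past 1.5-fold higher, with a median log2 ratio of 0.70, where 11.6% of all genes were. Of these WT IgG and A159V IgG cells 78.1% and 11.4% lay in the Edil3 cluster described below, against 65.0% and 6.48% of all tumor-like cells. The part of this cluster in that count was not tested. The part of dissociation and of mitochondrial content in the result was not tested.

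Tumor-like cells fell into 3 clusters, which were built without the members and are named here by a leading gene. The Adam2 cluster held 29.6%, 66.8% and 50.2% of tumor-like cells in WT IgG, A159V IgG and A159V anti-PD1. The Il1rl1 cluster, led also by interferon-stimulated genes such as Rsad2, held 5.35%, 26.7% and 43.9%. The Edil3 cluster, led by Tafa1, Sema3a and Csmd3, held 65.0%, 6.48% and 5.89%. Most WT IgG tumor-like cells were thus in a cluster that held few A159V cells, and genotype and cluster were largely confounded. Psph was among the 10 leading genes of the Adam2 cluster although it was not used to build it.

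Of the synthesis enzymes, Asns, Psat1 and Psph were lowest in the Edil3 cluster. Psph was at 128 CPM there in WT IgG, against 267 in the Adam2 cluster and 244 in the Il1rl1 cluster, and in A159V IgG it was at 163, 372 and 293 CPM in the same order. Asns was at 71.9, 134 and 126 CPM in WT IgG and at 79.0, 145 and 124 CPM in A159V IgG. The level thus followed the cluster in both libraries. In WT IgG 7 of 29 tested members were past 1.5-fold lower in the Edil3 cluster than in other tumor-like cells, namely Psph (-1.04), Mthfd2 (-0.96), Asns (-0.87), Psat1 (-0.87), Shmt2 (-0.76), Trib3 (-0.76) and Slc7a5 (-0.60), where 3.2% of all genes were. Nupr1 was past 1.5-fold higher (0.61), where 14.5% of all genes were. In the A159V libraries 0 members were higher there, where 20.3% and 18.8% of all genes were. In A159V IgG Asns, Psat1, Psph and Mthfd2 were past 1.5-fold lower, 4 of 29 beside 3.77% of all genes, and in A159V anti-PD1 Asns, Phgdh, Psph and Tars were, 4 of 30 beside 2.23%. Dissociation and heat shock genes were higher in the Edil3 cluster, summing to 4863 CPM there against 2101 CPM in the Adam2 cluster of WT IgG. In the same order immune or stromal RNA summed to 679 and 181 CPM and cycling genes to 986 and 1339 CPM. Median depths of these WT IgG clusters were 26317 and 37878 UMIs. The part of these measures in the levels of the members was not tested. Between the Il1rl1 and Adam2 clusters Slc7a11, Cebpb and Nupr1 were past 1.5-fold higher in the former in WT IgG, where 3.28% of all genes were higher and 0.485% lower. In A159V IgG and A159V anti-PD1 0 of 30 members were past 1.5-fold in either direction, where 2.9% and 1.64% of all genes were higher and 0.0787% and 0.0154% lower.

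**Figure D3:**
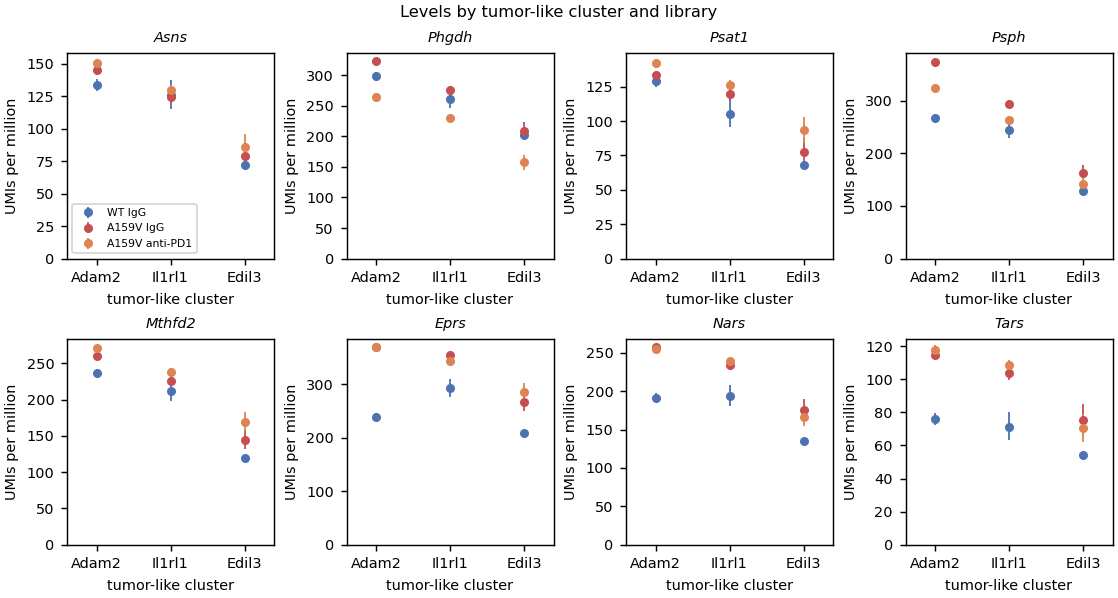
CPM of 8 members in the 3 tumor-like clusters, with a point for each library and exact Poisson 95% intervals, on linear axes from 0. Asns, Psat1, Psph and Mthfd2 are lowest in the Edil3 cluster in all 3 libraries, with Asns at 71.9 CPM there and 134 CPM in the Adam2 cluster of WT IgG.

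Within clusters the median genotype difference over members was smaller. Some members differed more in a cluster than over all tumor-like cells, such as Slc7a11 and Cebpb in the Adam2 cluster and Nupr1 in the Edil3 cluster. In the Adam2 cluster 4 of 30 tested members were past 1.5-fold higher in A159V IgG, with 3.58% of all genes higher and 3.66% lower. These were Slc7a11, at 31.8 and 77.1 CPM (log2 ratio 1.25, 1.14 to 1.36), Cebpb, at 434 and 761 CPM (log2 ratio 0.81, 0.78 to 0.84), Eprs (0.62) and Tars (0.59). In the Il1rl1 cluster, with 108 WT IgG cells, 0 of 30 were past 1.5-fold in either direction, where 5.47% of all genes were higher and 2.88% lower. In the Edil3 cluster, with 182 A159V IgG cells, Aldh18a1 (0.64), Trib3 (0.70), Aars (0.72) and Iars (0.59) were past 1.5-fold higher and Nupr1 (-0.79) was past 1.5-fold lower, 4 and 1 of 29 beside 5.83% and 3.18% of all genes. The median over tested members was 0.20, 0.057 and 0.31 in the Adam2, Il1rl1 and Edil3 clusters, beside 0.04, 0.12 and 0.11 over all genes.

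The ratios within clusters are given here by role. The log2 ratio of Asns was 0.11, -0.018 and 0.13 in the Adam2, Il1rl1 and Edil3 clusters, that of Phgdh 0.11, 0.08 and 0.042, that of Psat1 0.047, 0.18 and 0.18, and that of Psph 0.48, 0.27 and 0.35. For these enzymes the ratios within clusters were below the value over all tumor-like cells in each case. The tRNA synthetases were above 0 in 10, 9 and 10 of 10 genes, with medians of 0.38, 0.22 and 0.39. These medians too were below that over all tumor-like cells. Without the Edil3 cluster 2 of 30 members, Slc7a11 and Cebpb, were past 1.5-fold higher, where 3.59% of all genes were, against 7 of 29 with it.

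**Figure D4:**
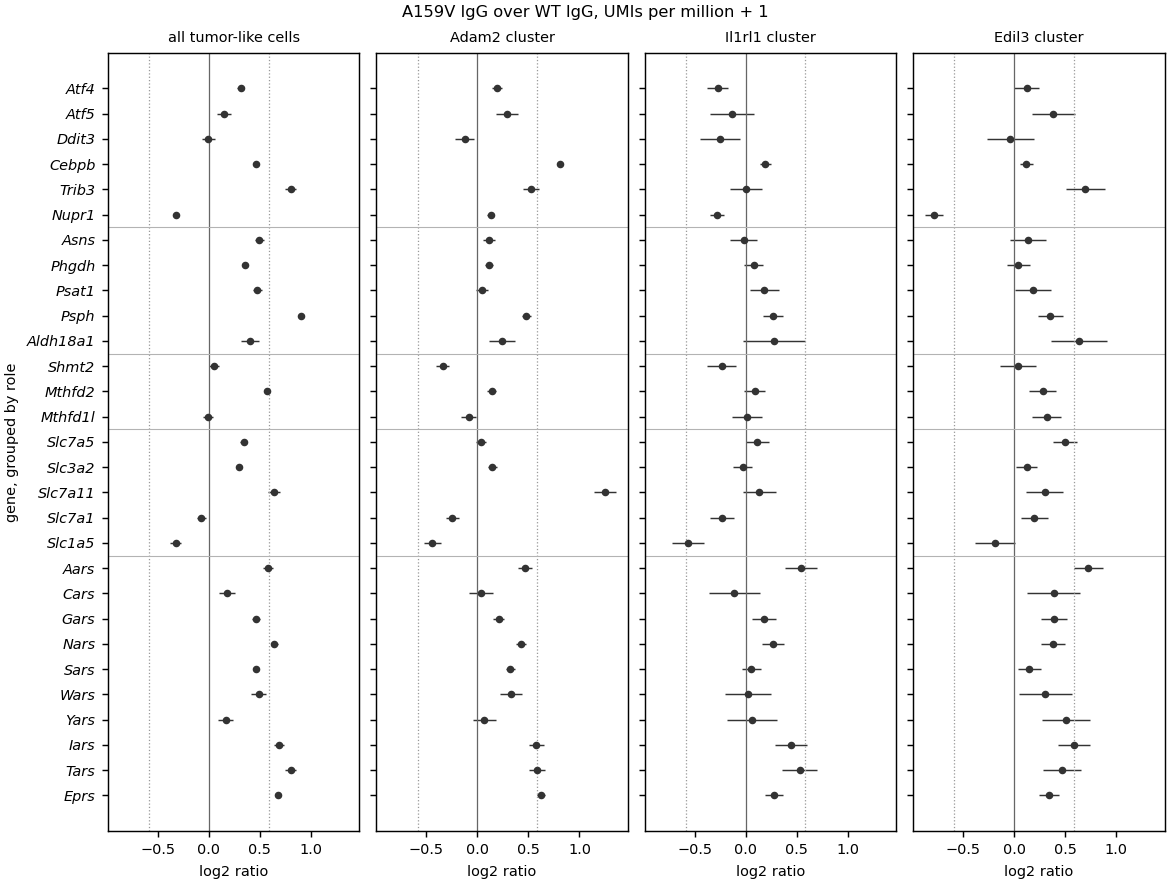
Log2 ratio between the IgG libraries (A159V over WT) for the 29 tested members in all tumor-like cells and in each cluster, with delta-method 95% intervals and dotted lines at 1.5-fold. Asns, Phgdh, Psat1 and Psph lie nearer 0 within clusters than over all cells, with Asns at 0.49 over all cells and 0.11, -0.018 and 0.13 within them.

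The comparison of A159V anti-PD1 with A159V IgG asked what checkpoint blockade changed in A159V tumor-like cells. Of 30 tested members 0 were past 1.5-fold in either direction, and of all 6407 genes 0.468% were higher and 0.328% lower. The median log2 ratio was 0.035 over members and 0.076 over all genes. The extremes were Slc7a11, at 81.5 and 108 CPM (log2 ratio 0.41, 0.36 to 0.45), and Phgdh, at 305 and 243 CPM (log2 ratio -0.33, -0.35 to -0.30). Asns had a log2 ratio of 0.013, Psph of -0.25, Atf4 of 0.063 and Trib3 of 0.089. Within the Adam2, Il1rl1 and Edil3 clusters 0, 0 and 1 of 30 members were past 1.5-fold, the 1 being Atf5, lower in the Edil3 cluster (-0.73, 195 and 131 UMIs). In these clusters 0.321%, 0.228% and 2.39% of all genes were higher and 0.289%, 0.32% and 1.86% lower.

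Slc7a11, the cystine and glutamate exchanger, had by far its highest level in neutrophil-like cells, at 4664, 13481, 2023 and 4082 CPM. These values rest on 96, 565, 106 and 220 cells. The level was higher with anti-PD1 than with IgG in both genotypes, with a log2 ratio of 1.53 (1.43 to 1.64) between the WT libraries and 1.01 (0.85 to 1.18) between the A159V ones, and it was lower in A159V than in WT under IgG (log2 ratio -1.21, -1.38 to -1.03). In a finer clustering, at resolution 2, the class split, and 559 of the 565 WT anti-PD1 cells lay in a cluster that held 13, 0 and 11 cells of WT IgG, A159V IgG and A159V anti-PD1. The WT values thus come from different clusters, whose part in the ratio was not tested. Differences past 1.5-fold were common in this shallow class. Between the WT libraries 1 of 11 tested members was higher with anti-PD1 and 6 lower, beside 24.6% and 29.5% of all genes, and between the A159V libraries 5 of 13 were higher and 2 lower, beside 15.2% and 27.6%. Between the IgG libraries 2 of 12 were higher in A159V and 3 lower, beside 28.7% and 17.2%. In cells deep enough to be thinned to 1000 UMIs, Slc7a11 was then found in 85.9%, 96.5%, 71.0% and 85.6% of neutrophil-like cells. In T-like cells, the background class, it was found in 0.418%, 0.690%, 1.07% and 0.929%. Before thinning, the shares over all neutrophil-like cells were 88.5%, 96.5%, 81.1% and 83.6%, so shares before and after are over different cells. Median depths were 1422.5, 1523, 1475 and 1328 UMIs in neutrophil-like and 2794.5, 3064.5, 1652.5 and 2207 in T-like cells. Slc7a11 was among the leading genes of the neutrophil-like cluster although it was not used to build it.

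Counts for amino acid synthesis were few in the same cells. The 6 synthesis enzymes summed to 2, 7, 17 and 19 UMIs, or 12.2, 7.34, 89.5 and 56.3 CPM, against 38.3, 25.3, 58.1 and 50.5 CPM in macrophage-like cells. Psph had 0, 0, 6 and 3 UMIs and Phgdh 0, 0, 3 and 5 in neutrophil-like cells. By a floor of 3 counts, a count of 0 in WT IgG allows up to 18.3 CPM, so low levels were not detectable at this depth. Cebpb, a factor of myeloid differentiation, was at 5847, 3356, 4340.0 and 4443 CPM in neutrophil-like cells and 2239, 1606, 2394 and 2474 CPM in macrophage-like cells. Ddit3 was at 213, 135, 284 and 338 CPM in neutrophil-like cells, above its 50.6, 50.4 and 42.8 CPM in tumor-like cells of WT IgG, A159V IgG and A159V anti-PD1.

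In macrophage-like cells Slc7a11 was at 223, 417, 272 and 482 CPM, higher with anti-PD1 by a log2 ratio of 0.90 (0.82 to 0.97) between the WT libraries and 0.82 (0.74 to 0.90) between the A159V ones. In A159V it was the only 1 of 18 tested members past 1.5-fold higher, where 2.34% of all genes were, and 0 were lower (1.59%). In WT, Slc7a11 and Atf4 were past 1.5-fold higher and Slc7a1 and Nupr1 lower, 2 and 2 of 16 beside 16.8% and 14.7% of all genes. The WT anti-PD1 macrophage-like cells came mostly from the cluster led by Mmp12 and Mrc1 (1464 of 1935 cells), which held 138, 77 and 260 cells in the other libraries. In that cluster Slc7a11 was at 422, 429, 82.9 and 330.2 CPM, and the intervals of WT IgG (372 to 476 CPM) and WT anti-PD1 (414 to 444 CPM) overlapped there. Its level was highest in the cluster led by Cxcl3, at 588, 1097, 575 and 1229 CPM, and was higher there with anti-PD1 in both genotypes, on 271, 69, 477 and 704 cells. In the cluster led by C1qa it was at 132, 171, 172 and 203 CPM, and in the cluster led by Lyz2 at 207, 131, 148 and 190.3 CPM, so that the direction with anti-PD1 differed between genotypes in the last. Between A159V IgG and WT IgG macrophage-like cells 0 of 17 members were past 1.5-fold higher (1.28% of all genes) and 1, Slc1a5, was lower (1.9%).

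**Figure D5:**
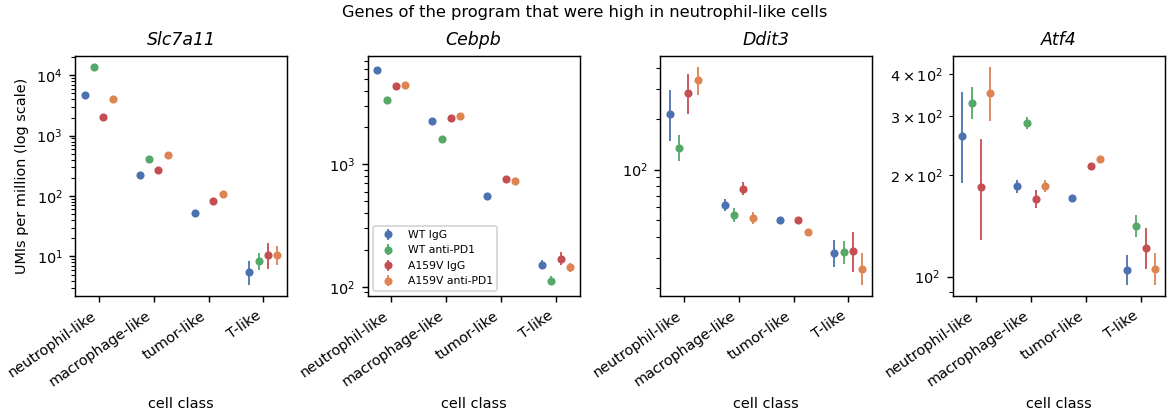
CPM on log axes of Slc7a11, Cebpb, Ddit3 and Atf4 in 4 cell classes, with a point for each library of at least 50 cells of the class and exact Poisson 95% intervals. Slc7a11 reaches 13481 CPM in WT anti-PD1 neutrophil-like cells, and Atf4 shows no such gap between classes.

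In NK-like cells, which express granzymes, 8 of 20 tested members were past 1.5-fold lower under anti-PD1 than under IgG in WT, where 14.3% of all genes were. Phgdh was at 37.8 and 15.6 CPM (log2 ratio -1.23, -1.87 to -0.58), Mthfd2 at 40.5 and 16.1 CPM (log2 ratio -1.27, -1.91 to -0.64) and Slc7a5 at 50.1 and 17.8 CPM (log2 ratio -1.45, -2.04 to -0.85). Slc3a2, Slc1a5, Gars, Wars and Eprs were the others. Atf4 and Ddit3 were past 1.5-fold higher, where 33.3% of all genes were, with Ddit3 at 16.7 and 53.3 CPM (log2 ratio 1.62, 0.94 to 2.29). At resolution 2 these cells split into a cluster led by Gzmc (137 WT IgG and 72 WT anti-PD1 cells) and a cluster with Klra8 among its leading genes (81 and 370 cells), so the makeup of the class differed between the libraries. Within the Gzmc cluster 10 of 22 members were lower and 2 higher, beside 13.3% and 28.3% of all genes, and within the Klra8 cluster 4 of 16 were lower and 3 higher, beside 14.3% and 31.3%. Phgdh was lower in both, at 40.0 and 17.8 CPM and at 28.9 and 14.8 CPM, the latter from 8 and 20 UMIs. Slc7a5 was lower in the Gzmc cluster, at 62.8 and 25.7 CPM, and was at 10.8 and 14.8 CPM in the Klra8 cluster. Dissociation and heat shock genes were higher in the same NK-like cells, 6 of 9 past 1.5-fold, and their part in these ratios was not tested. In T-like cells Psat1, Phgdh and Slc3a2 were past 1.5-fold lower in WT anti-PD1, 3 of 20 beside 14.1% of all genes, and 0 were higher (21.2%). In A159V the same treatment left 0 of 23 members past 1.5-fold in T-like cells, beside 2.84% of genes higher and 2.75% lower, and 0 of 21 in NK-like cells, beside 7.59% and 2.9%. Between A159V IgG and WT IgG 1 of 23 members was past 1.5-fold higher and 1 lower in T-like cells (Yars and Psat1, beside 3.2% and 1.61% of all genes), 0 of 21 in NK-like cells (4.15% and 5.08%) and 1 of 25, Gars, higher and 0 lower in stromal-like cells (3.35% and 3.85%). Whether the effect of anti-PD1 differed between genotypes was not tested, since each effect rests on 1 library per group.

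Nupr1 was lower under anti-PD1 than under IgG in WT across myeloid and stromal classes. It was at 148, 45.2, 178 and 122 CPM in macrophage-like cells, 59.1, 9.27, 111 and 57.4 CPM in dendritic-like cells and 249, 84.5, 206 and 147 CPM in stromal-like cells, so that WT anti-PD1 was the lowest of the 4 libraries in each. The log2 ratio of WT anti-PD1 over WT IgG was -1.69 (-1.84 to -1.53), -2.55 (-3.17 to -1.93) and -1.55 (-1.69 to -1.41). In tumor-like cells Nupr1 was at 455, 364 and 295 CPM in the other 3 libraries, and the tumor marker RNA in macrophage-like cells summed to 32.4, 2.08, 61.8 and 39.5 CPM. The part of stray tumor RNA in the Nupr1 levels was not tested. In dendritic-like cells Slc7a11 and Mthfd1l were past 1.5-fold higher in WT anti-PD1, together with Slc1a5, 3 of 19 beside 21.9% of all genes, with Slc7a11 at 53.9, 182, 100.1 and 123 CPM. Ddit3, Cebpb and Nupr1 were lower, 3 of 19 beside 11.8%. The makeup of this class differed too, since the resolution 2 cluster led by Wdfy4 held 7 WT IgG and 70 WT anti-PD1 cells. In A159V dendritic-like cells Mthfd1l and Wars were higher and Nupr1 lower with anti-PD1, 2 and 1 of 19 beside 6.48% and 6.51%, and Slc7a11, Nupr1 and Tars were higher and Slc1a5 and Aars lower in A159V than in WT under IgG, 3 and 2 of 19 beside 7.66% and 5.18%. In WT stromal-like cells Cebpb and Nupr1 were lower with anti-PD1, 2 of 22 beside 13.3% of all genes, and 0 were higher (13%). This rested on 139 WT IgG and 1602 WT anti-PD1 cells, and the makeup of the class differed. The resolution 2 stromal-like cluster led by Eln held 7 and 330 cells of these libraries, and its part in the Cebpb and Nupr1 ratios was not tested. In stromal-like cells of A159V anti-PD1, 8 of 23 members were past 1.5-fold lower than in A159V IgG, where 9.66% of all genes were, and they included Mthfd2 (-1.26), Mthfd1l (-1.31) and Slc7a5 (-1.02), on 181 and 168 cells, while 0 were higher (8.67%). The stromal-like cluster led by Tnc made up 56 and 15 of those cells.

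Members were spread over tumor-like cells and varied together. In cells deep enough to be thinned to 1000 UMIs, Asns was then found in 8.34%, 11.9% and 11.4% of tumor-like cells of WT IgG, A159V IgG and A159V anti-PD1. Psph was found in 13.5%, 26.7% and 22.8%. In T-like cells, taken as the background class, the shares were 0.209%, 0.457% and 0.371% for Asns and 3.45%, 3.05% and 3.53% for Psph, and in macrophage-like cells Psph was found in 1.05%, 1.62% and 1.43%. Before thinning, 68.9%, 87.8% and 91.5% of tumor-like cells held an Asns UMI. With cells thinned to 10000 UMIs, a member was correlated across cells with the sum of the other members. The median Pearson r over members was 0.25 in WT IgG (1849 cells), 0.19 in A159V IgG (2626 cells) and 0.22 in A159V anti-PD1 (1968 cells). For other genes of at least 20 CPM the median was -0.0053, 0.0013 and 0.0056. In the same order 28 of 29, 30 of 30 and 30 of 30 members exceeded the 90th percentile of the other genes. Trib3 had the highest r, at 0.43, 0.39 and 0.44. Within clusters the median r was 0.23, 0.18 and 0.21 in the Adam2 cluster, 0.16, 0.18 and 0.21 in the Il1rl1 cluster and 0.25, 0.27 and 0.20 in the Edil3 cluster. Fewest members exceeded the 90th percentile in the Il1rl1 cluster of WT IgG (19 of 29, 101 cells) and the Edil3 cluster of A159V anti-PD1 (20 of 30, 113 cells). Cells of a library share depth, cell cycle and handling, and these coefficients are descriptions with no test.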

How the data were processed

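There was 1 library per group, of 10x Genomics 3′ type. The authors deposited whole-number UMI counts per gene and cell from Cell Ranger (7.2.0 per the file headers, 5.0.1 per the labels), with intronic reads included, and these counts precede the decontamination and doublet steps of the study. Cells with more than 500 genes were kept, and doublets were predicted in each library by comparison with 2 simulated doublets per cell and removed at 0.8% per 1000 cells. No background RNA was subtracted, and no limit on mitochondrial UMIs was set. Analyzed libraries had 54402632 to 125227747 UMIs in all barcodes.

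Clustering used scanpy 1.11.5 on 2000 variable genes, without the members and the 11 related lists, with 20 principal components, 20 neighbors and Leiden resolution 1. A cluster took the name of 1 of 14 marker lists that led its mean z score, with at least 3 markers found in at least 10% of its cells, a condition set after a first output was seen. Names ending in "-like" are based on marker RNA.

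UMIs were summed over the cells of a class of at least 50 cells and scaled to CPM. Ratios used a pseudocount of 1 CPM. Calls past 1.5-fold among genes with a mean of at least 20 CPM were set beside the same share over all genes. No test was possible with 1 library per group. Only the calculation of ratios and their intervals was tested on simulated data, with Poisson counts and no variation between cells or libraries. The members and lists were chosen with earlier results of these data known. All members are accounted for, and members of other lists were named where past 1.5-fold. Alternatives changed scaling, pseudocount, level and cell filters, doublets, resolution, fold and the cells used. Some promoter matches are not reported here.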

Additional observations from a re-analysis of the deposited data

Results flagged for a closer look

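Sesn2, which encodes a leucine-binding inhibitor of mTORC1, had log2 ratios of opposite sign with anti-PD1 in neutrophil-like cells of the WT and A159V tumors, from few UMIs. The log2 ratio of anti-PD1 over IgG was -0.79 (-1.71 to 0.13) in WT, at 73.2 and 41.9 CPM from 12 and 40 UMIs, and 1.77 (0.31 to 3.23) in A159V, at 21.1 and 74.1 CPM from 4 and 25 UMIs. The WT interval includes 0, so a difference in WT was not shown, and the difference between the genotypes was not tested.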

How the results depend on the processing

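No paired analysis was possible because every group held 1 library. In tumor-like cells, 7 of 29 members were past 1.5-fold higher in the A159V library under IgG. This count was 11 with the mean of per-cell CPM, 18 without cells with Mki67 or Top2a and 0 with a call at 2-fold. The cells without Mki67 or Top2a were 78.1% Edil3 cluster in WT IgG and 11.4% in A159V IgG. With cells of the Adam2, Il1rl1 or Edil3 cluster alone the count was 4, 0 and 4, and without the Edil3 cluster 2, which are alternatives chosen after seeing the data. It stayed within 5 to 9 under median-of-ratios scaling, a pseudocount of 10 CPM, minimums of 1 and 50 CPM, the limits on genes and mitochondrial UMIs, doublets kept, resolution 2, the marker gate, and without cells with immune or stromal UMIs. For A159V anti-PD1 over A159V IgG the count of 0 past 1.5-fold became 1 in the Edil3 cluster alone and 1 without cells with Mki67 or Top2a, and the median of -0.041 under median-of-ratios scaling was below 0. In immune classes, 54 of 272 values of members in a class and comparison were past 1.5-fold (19.9%, beside 22.4% over all genes). This became 161 of 484 at a minimum of 1 CPM (33.3% beside 35.4%), 24 of 137 at 50 CPM (17.5% beside 20.2%) and 18 with a call at 2-fold (6.62% beside 8.43%). It was 37 of 272 with a pseudocount of 10 CPM (13.6% beside 17.3%). In cells with more than 1000 genes it was 36 of 236 (15.3% beside 19.1%). In NK-like cells the 8 members lower in WT anti-PD1 became 4 in the Klra8 cluster alone, an alternative chosen after seeing the data. Of the values of single members past 1.5-fold, 166 stayed past it in the same direction, 38 fell short of it, and Stc2 in the Il1rl1 cluster turned to a log2 ratio of -0.011. All values that fell short were in tumor-like cells, with Slc7a11 in 6 settings and Nars in 5. Outside tumor-like cells only Slc7a11 in neutrophil-like and macrophage-like cells was followed in this way. Other immune and stromal calls thus could not be listed as falling short. Slc7a11 in neutrophil-like and macrophage-like cells stayed past 1.5-fold in every setting, but no setting took a single cluster of these classes alone. In the macrophage-like clusters described above its level was not always higher with anti-PD1 in WT. Most WT anti-PD1 neutrophil-like cells lay in a finer cluster with few WT IgG cells. Chac1 and Stc2 are counted here although they were under the minimum. Except where the setting itself changes the genes or cells, the cause was not tested. The 22 members highest in tumor-like cells were 22 or 23 under the alternatives run. Depth limited the neutrophil-like class most, with 164015 UMIs in WT IgG, and intervals do not cover differences between mice.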

Other observations

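Mthfd2, the mitochondrial folate enzyme, had its highest immune level in the dendritic-like cluster led by Ccr7 and Ccl22, at 205, 142, 180.3 and 214 CPM in the 4 libraries, against 83.9, 72.2, 92.8 and 65.0 CPM in the dendritic-like cluster led by H2-Eb1. The first cluster held 55, 54, 104 and 72 cells. Endothelial-like cells reached 50 cells only in WT anti-PD1 (183 cells), where Wars, the tryptophanyl-tRNA synthetase, was at 97.9 CPM (84.5 to 113). B or plasma-like cells reached 50 cells only in A159V anti-PD1 (57 cells), where Asns was at 64.7 CPM (37.0 to 105).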
